A study of Rattus norvegicus with 48 samples.

Results

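The livers of rats given myclobutanil at 400 mg/kg were compared with those of rats given 150 mg/kg, to describe what the highest dose changed beyond the middle dose. The members are the 12 liver libraries labelled with these doses, 6 at each, out of 24 liver libraries and 48 in the series. Every rat was an adult male of the Crl:CD (SD) Sprague-Dawley strain, 8 to 10 weeks of age when dosing began, and was gavaged once a day for 14 days in a corn oil volume of 4 ml/kg. Rats of the vehicle group received the oil alone, and the other groups received the compound at 30, 150 or 400 mg/kg per day. Poly-A RNA was sequenced from liver stored in RNAlater, which holds every cell type of the organ, so that fewer cells of a type and less RNA per cell cannot be told apart. The labels do not say that each library comes from a different rat, and p-values measure the spread between libraries, which may in part be technical.

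Myclobutanil is a triazole fungicide that blocks the fungal cytochrome P450 lanosterol demethylase, an enzyme of ergosterol synthesis. In rodent liver, azole fungicides are known to activate the nuclear receptors CAR and PXR, which raise transcription of drug-metabolising cytochromes P450, conjugating enzymes and transporters, and to enlarge hepatocytes. Hepatocytes also make most plasma proteins, and transcripts of a few secreted proteins take up a large part of liver RNA. The files identify genes by Ensembl IDs without names, and none of the 32545 IDs matched the reference table (0 matched). The gene lists for these pathways and the cell type markers could therefore not be applied, the labelled tissue could not be checked against its markers, and genes are described by level, by tissue ratio and by dose pattern, with 4 of them given by ID.

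Libraries at both doses were alike in depth and mapping. Between 39.8 and 46.0 M reads were assigned to genes at 150 mg/kg and between 38.5 and 45.0 M at 400 mg/kg. The deepest library in each group, 2415 and 2421, stood apart in depth, so the deeper libraries were balanced over the doses. Levels are given as CPM, counts scaled to library size with TMM factors. Log2 CPM correlated at 0.990 to 0.993 between the 12 libraries and at 0.294 to 0.339 with those of testis, over 18221 genes. On the first principal component of the 12 libraries, which held 18.3% of the variance, all 6 libraries at 400 mg/kg had positive scores and all 6 at 150 mg/kg negative ones. The library labelled 400 mg/kg 2422 lay nearest to the 150 mg/kg group, with a score of 4.68 against 13.5 to 24.5 in the other 400 mg/kg libraries.

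Among genes with a mean of at least 1 CPM whose 400 mg/kg libraries all lay on the same side of the 150 mg/kg mean, ENSRNOG00000013241 rose most. Its level at 150 mg/kg ranged from 11.4 to 24.8 CPM with a median of 18.5, and at 400 mg/kg from 152 to 261 CPM with a median of 223. The groups did not overlap, and the lowest library at 400 mg/kg was several times above the highest at 150 mg/kg. The mean went from 18.02 ± 5.05 to 217 ± 37.2 CPM (SD, n = 6), and the fitted difference was 12.1-fold (3.59 on the log2 scale with an SE of 0.31, edgeR adjusted p = 5.42e-07). Lower doses gave 0.834 to 5.39 CPM with vehicle (median 2.72) and 3.72 to 13.1 CPM at 30 mg/kg (median 7.20). Each group median was above that of the dose below it. Against vehicle the log2 fold change was 1.42 at 30 mg/kg (SE 0.32, adjusted p = 0.292), 2.67 at 150 mg/kg (SE 0.32, adjusted p = 3.21e-05) and 6.26 at 400 mg/kg (SE 0.36, adjusted p = 6.06e-11).

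ENSRNOG00000001466 followed, with 1.83 to 6.09 CPM at 150 mg/kg (median 2.55) and 12.7 to 43.6 CPM at 400 mg/kg (median 29.1). Here too every library at 400 mg/kg was above every library at 150 mg/kg. The mean was 3.13 ± 1.53 at 150 mg/kg and 28.9 ± 10.7 CPM at 400 mg/kg (SD, n = 6), a fitted rise of 9.19-fold (3.20 on the log2 scale with an SE of 0.41, adjusted p = 0.000146). With vehicle it was at 0.492 to 2.002 CPM (median 1.198) and at 30 mg/kg at 0.471 to 3.53 CPM (median 1.19). Against vehicle its log2 fold change at 150 mg/kg, 1.29 with an SE of 0.45, missed the threshold (adjusted p = 0.142), while that at 400 mg/kg, 4.49 with an SE of 0.45, passed it (adjusted p = 4.13e-07). Both genes were called under all 23 alternatives to this fit. Neither was measurable in testis, where ENSRNOG00000001466 had 0 reads in all 24 libraries and ENSRNOG00000013241 had 0 to 6.

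The lowest log2 fold change under the same conditions was that of ENSRNOG00000059834. It ranged from 0.786 to 6.34 CPM at 150 mg/kg (median 3.54) and from 0.147 to 1.73 CPM at 400 mg/kg (median 0.585), which rests on 6 to 80 reads per library. The ranges overlapped, through 150 mg/kg 2417 and 400 mg/kg 2421. The means were 3.85 ± 2.18 and 0.678 ± 0.559 CPM (SD, n = 6), with a log2 difference of -2.48, an SE of 0.63 and an adjusted p of 0.0251. Vehicle libraries held 2.35 to 9.75 CPM (median 5.49) and those at 30 mg/kg 0.773 to 7.78 CPM (median 4.69), so this gene varied widely within every group. In testis it was at 0.923 to 2.14 CPM over the vehicle, 150 and 400 mg/kg groups, and its log2 fold change there between 150 and 400 mg/kg was 0.39 (SE 0.15, adjusted p = 0.222). The liver effect less the testis effect was -2.86 on the log2 scale, with an SE of 0.65 and an adjusted p of 0.0208. This came from a joint edgeR fit of both tissues without a block on the title number.

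ENSRNOG00000001388 was second. Its level at 150 mg/kg ranged from 4.76 to 66.7 CPM (median 17.0), and at 400 mg/kg from 4.04 to 8.34 CPM (median 5.34). The 400 mg/kg libraries were uniformly low, while those at 150 mg/kg reached from the same level to above the highest vehicle library. The means were 29.1 ± 27.6 and 5.74 ± 1.77 CPM (SD, n = 6), with a log2 difference of -2.35, an SE of 0.62 and an adjusted p of 0.0329. Vehicle libraries had 9.40 to 54.5 CPM (median 25.8) and 30 mg/kg libraries 18.7 to 137 CPM (median 36.1). The calls for these falling genes were less stable than those for the rising ones: ENSRNOG00000059834 lost its call under 8 of 23 alternatives and ENSRNOG00000001388 under 13. Their adjusted p reached 0.737 and 0.977 in the test against a fold change of 1.5, and 0.0612 and 0.148 by limma-voom.

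**Figure D1:**
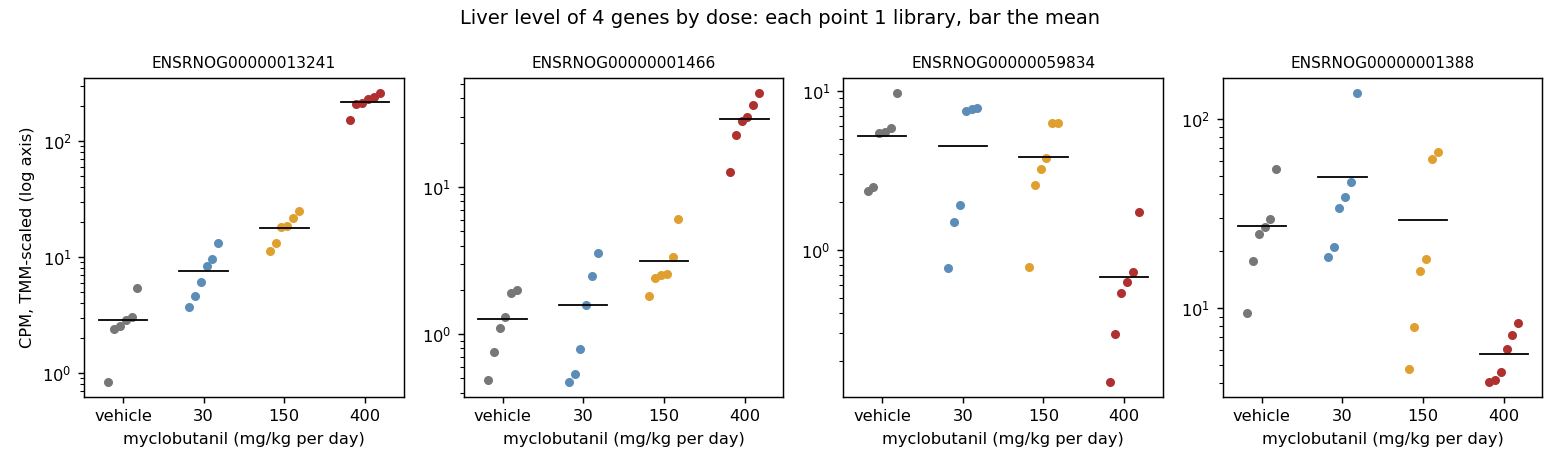
CPM (TMM-scaled, log axis) of the 4 genes given by ID in the 24 liver libraries, by dose of myclobutanil in mg/kg per day; each point is 1 library and the bar is the group mean. In the first and second panel all 6 points at 400 mg/kg lie above those at 150 mg/kg, while in the other panels the groups overlap.

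Across the liver, 352 genes were higher and 312 lower at 400 than at 150 mg/kg at an adjusted p under 0.05. These are 2.65% and 2.35% of the 13275 genes tested, 5% in all, and 2777 genes had an unadjusted p under 0.05. Differences were mostly small, with a median of 1.28-fold (quartiles 1.21 and 1.53) for rising and 1.22-fold (quartiles 1.17 and 1.36) for falling genes. At least 2-fold differences were found for 33 rising and 20 falling genes, and at least 4-fold ones for 6 and 5. The greatest fall, 16.4-fold, was in a gene that did not meet the conditions for those given by ID. Over all genes tested the median log2 fold change was 0.01, and 90% lay between -0.40 and 0.39. The 6 and 6 libraries did not overlap for 139 of the 352 and 104 of the 312 genes. Over all genes tested 2.49% had groups that did not overlap, 1.36% with every 400 mg/kg library above and 1.14% with every one below, and since the same contrast chose the called genes nothing is read from this.

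The number of called genes rested strongly on the fit and on single libraries. It was 288 when only the 12 libraries were fitted, 68 with 5 against 5 libraries and 1051 with DESeq2. Without 150 mg/kg 2415, 150 mg/kg 2418 or 400 mg/kg 2423 it was 436, 398 and 408, of which 400, 380 and 373 were among the 664. In a test against a fold change of at least 1.5, 5 genes were higher and 2 lower. Scaling set the balance of directions. With the totals of gene reads as the only scaling, the median of all genes moved from 0.01 to 0.12 on the log2 scale and the split became 1706 higher and 125 lower, while RLE size factors gave 328 and 307. All directions given here are relative to the TMM-scaled centre.

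**Figure D2:**
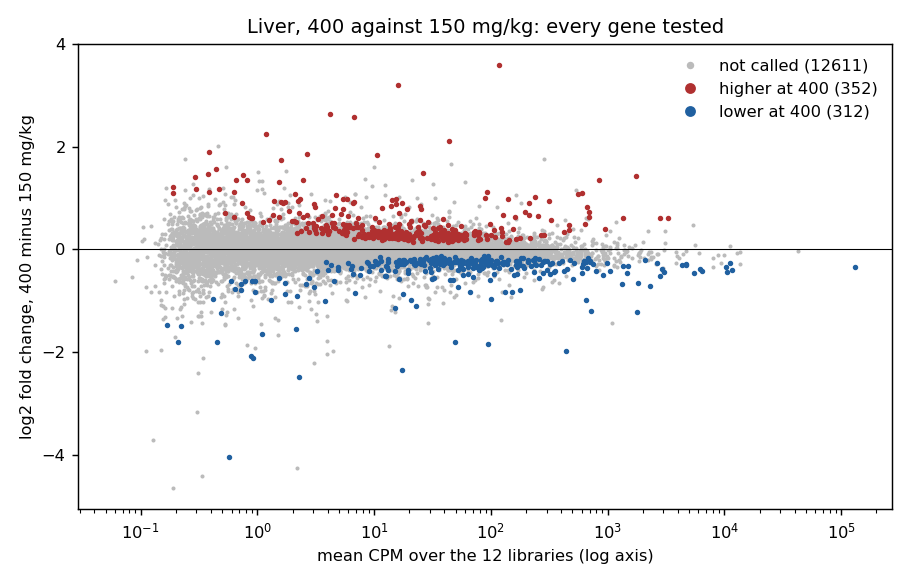
Log2 fold change between 400 and 150 mg/kg against the mean CPM over the 12 libraries (log axis) for the 13275 liver genes tested, coloured by call. The 352 higher genes reach 3.59 and the 312 lower genes -4.03, and most of the 664 called genes lie within 1 of zero.

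To see how each library bore on these differences, genes were called without it, and the library was then scored on genes that it had not helped to choose. Each 400 mg/kg library left out had a median log2 difference from the 150 mg/kg mean of 0.26 to 0.40 over the genes called higher in the other libraries, and of -0.35 to -0.18 over those called lower. Each 150 mg/kg library left out had -0.01 to 0.14 and -0.12 to -0.00 over its own lists. The groups did not overlap on either score, over a different gene list for each library. The 150 mg/kg libraries of the reference mean helped to choose the genes, so a left-out library of either dose can lean to the called side. Among the 150 mg/kg libraries, 2416 was nearest to the 400 mg/kg group, at 0.14 and -0.12, and 2418 had -0.01 and -0.00. The spread within groups was alike: the median SD of log2 CPM over genes was 0.18 at either dose, and 49.2% of genes had the larger SD at 400 mg/kg.

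**Figure D3:**
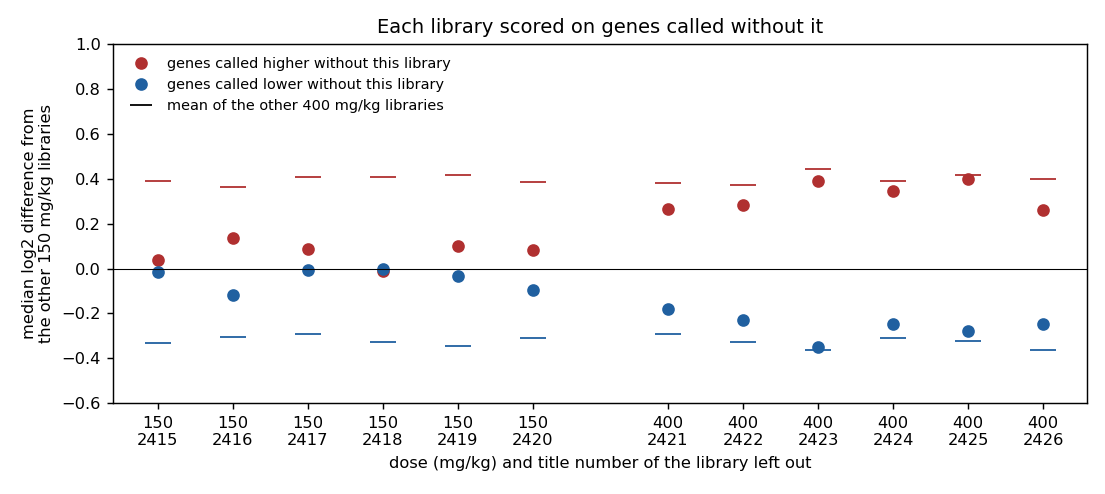
Median log2 difference of each library from the other 150 mg/kg libraries, over genes called higher (red) or lower (blue) when that library was left out. Horizontal marks give the mean of the other 400 mg/kg libraries. These and the 150 mg/kg libraries of the reference helped to choose the genes. The 6 libraries at 400 mg/kg lie at 0.26 to 0.40 and -0.35 to -0.18, apart from the 6 at 150 mg/kg.

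The share of genes that fell was highest among abundant transcripts, but the share called in either direction rose with level too. Of 1115 genes with a mean of 100 CPM or more over the 12 libraries, 108 were lower (9.69%) and 40 higher (3.59%) at 400 mg/kg. Beside this stand 2.35% and 2.65% of all genes tested. In the class from 10 to 100 CPM there were 156 and 183 among 5726 genes, the largest number of falling genes in any class. From 1 to 10 CPM there were 31 and 109 among 4384, and under 1 CPM 17 and 20 among 2050. Both directions together made up 13.3% at 100 CPM or more, 5.92% from 10 to 100 CPM and 3.19% from 1 to 10 CPM. Under 1 CPM this share was lower still. The median level at 150 mg/kg was 61.3 CPM for the genes that fell and 13.6 CPM for those that rose. Together the 312 genes that fell held 300867 CPM at 150 mg/kg and 233692 CPM at 400 mg/kg, while the 352 that rose went from 21480 to 33029 CPM. Without the most abundant gene the first of these sums went from 152680 to 116489 CPM. The genes were chosen for having fallen or risen, so the sums only describe them. With gene totals as the only scaling, the class of 100 CPM or more had 158 higher and 52 lower genes instead.

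Genes were also divided by their ratio between liver and testis in the 30 mg/kg groups, which are not part of this comparison. A gene was called liver-enriched when its mean CPM, with 0.1 added, was at least 8-fold higher in liver, testis-enriched when it was at least 8-fold lower, and shared otherwise. Of 1550 liver-enriched genes, 126 fell and 42 rose at 400 mg/kg, 8.13% and 2.71%. Of 9714 shared genes, 171 fell and 257 rose, 1.76% and 2.65%. Of 2011 testis-enriched genes, 15 fell and 53 rose, 0.746% and 2.64%. Over every gene of a class, called or not, the median log2 fold change was -0.09 for liver-enriched, 0.01 for shared and 0.05 for testis-enriched genes. The classes by level and by tissue ratio share genes, and their parts in these shares were not separated. Of genes of 100 CPM and over, 9.69% fell.

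The count of falling liver-enriched genes exceeded that of rising ones in all 12 fits without 1 library and in 9 of 11 other alternatives. The exceptions were gene totals as the only scaling, with 75 lower and 139 higher, and the test against a fold change of 1.5, with 1 lower and 2 higher. A change of scaling shifts all genes almost alike, so the difference between the class medians hardly changes with it by construction. Liver-enriched less testis-enriched was -0.14 with TMM and with gene totals, and -0.16 to -0.12 over all 23 alternatives. The test against a fold change of 1.5 reuses the fold changes of the main fit. As a share of all gene reads, liver-enriched genes took 69.2% to 72.1% at 150 mg/kg (median 70.9%) and 68.0% to 69.6% at 400 mg/kg (median 68.5%). Only the ends of these ranges overlapped, and the share was 69.2% to 71.6% with vehicle and 69.8% to 72.2% at 30 mg/kg. Of all gene reads, most of this difference was the share of the most abundant gene. Without it, but with its reads kept in the total, liver-enriched genes took 56.3% ± 0.624 of gene reads at 150 mg/kg and 56.3% ± 0.779 at 400 mg/kg (SD, n = 6), in ranges of 55.5% to 57.1% and 55.4% to 57.6%. The fall of that gene raises every other share of the total. These values therefore do not show that the other liver-enriched genes were unchanged.

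**Figure D4:**
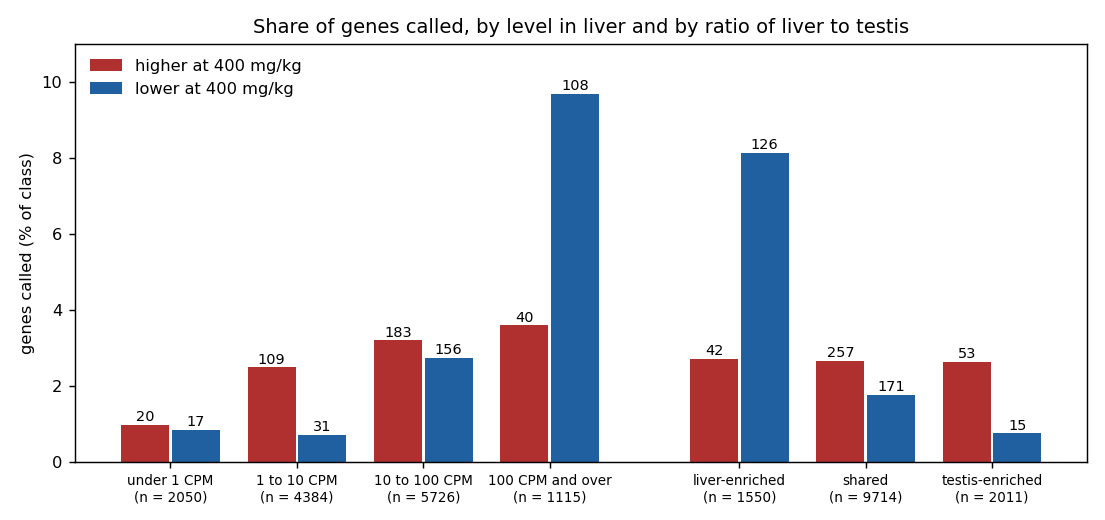
Percent of the genes of each class called higher (red) or lower (blue) at 400 than at 150 mg/kg, by mean level over the 12 libraries and by the ratio of liver to testis at 30 mg/kg; the figures on the bars are numbers of genes. The bars for lower genes are highest in the class of 100 CPM and over (108 genes) and in liver-enriched genes (126), an excess that turns under scaling by gene totals alone.

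The most abundant liver transcript fell with the top dose. It held 132315 to 162726 CPM at 150 mg/kg (median 149109) and 107221 to 135830 CPM at 400 mg/kg (median 115915), and the groups overlapped slightly. The mean went from 148188 ± 11098 to 117202 ± 10260 CPM (SD, n = 6), and the fitted log2 difference was -0.34 (SE 0.09, edgeR adjusted p = 0.0246). Unscaled, it took 14.4% ± 0.519 of gene reads at 150 mg/kg and 12.3% ± 1.04 at 400 mg/kg. Vehicle livers held 145688 to 182252 CPM (median 166519).

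Of the 10 most abundant genes, ranked by mean CPM over all 24 liver libraries, 5 were called, and these 5 were lower. Beside this stand the 2.35% of all genes tested, and 9.69% of genes of 100 CPM and over, that were called lower. The third in rank fell without overlap, from 12166 to 14461 CPM (median 13079) at 150 mg/kg to 9005 to 10888 CPM (median 10089) at 400 mg/kg (log2 fold change -0.40, SE 0.08, adjusted p = 0.00531). The seventh did so from 10894 to 15204 CPM (median 11762) to 8334 to 9982 CPM (median 9045; -0.43, SE 0.08, adjusted p = 0.00423). The second in rank was at 42736 CPM at 150 mg/kg and 42080 CPM at 400 mg/kg, and its log2 difference of -0.02 (SE 0.09) missed the threshold at an adjusted p of 0.914. Together the 10 genes took 26.7% to 30.1% of gene reads at 150 mg/kg (median 28.4%) and 25.3% to 27.5% at 400 mg/kg (median 25.7%). The difference in means was -2.47 percentage points (exact permutation p = 0.00433, 2-sided, adjusted 0.0346 over 8 library measures; the smallest p for 6 against 6 is 0.00216). Most of it was the share of the first gene. The other 9 took 14.0% ± 0.782 and 13.6% ± 0.384 of all gene reads (SD, n = 6, exact permutation p = 0.303, 2-sided). The first gene stayed in that total, so its fall raises the share of the other 9, and this does not show that they were unchanged. None of the other 7 measures, which were depth, genes at 1 CPM or more and the 5 classes of reads outside gene counts, passed the same test, with adjusted p of 0.225 to 0.924.

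Among genes that rose, those with the greatest gain in CPM were liver-enriched too, and all 5 were already called higher at 150 mg/kg than with vehicle, as were 46 of all 352 rising genes and 1.02% of genes tested. The first went from 411 to 1641 CPM (median 1000.4) at 150 mg/kg to 1613 to 4211 CPM (median 2395) at 400 mg/kg, and the fourth in gain from 363 to 863 CPM (median 396) to 761 to 2116 CPM (median 1086). Both overlapped between the doses, while the other 3 did not. The second in gain went from 2289 to 3183 CPM (median 2436) at 150 mg/kg to 3237 to 4995 CPM (median 3798) at 400 mg/kg, without overlap. The log2 difference between these doses was 0.62 (SE 0.13, adjusted p = 0.0108), and that between 150 mg/kg and vehicle 1.31 (adjusted p = 2.21e-06). The third went from 1656 to 2596 CPM (median 2256) to 2646 to 4375 CPM (median 3328), with 0.61 (SE 0.12, adjusted p = 0.00439) after 0.71 (adjusted p = 0.00134). The 150 mg/kg libraries enter both differences. These genes were chosen after their values were seen.

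The genes called here were then followed at the lowest dose. The vehicle and 30 mg/kg libraries enter neither mean of the comparison, but they share its fit and so bear on which genes passed the filter and the test (288 genes were called from the 12 libraries alone, 274 of them among the 664). Of the 352 genes that were higher at 400 than at 150 mg/kg, 245 had a mean above vehicle at 30 mg/kg, 69.6%, beside 49.4% of all genes tested. Their median log2 fold change at 30 mg/kg was 0.06 (quartiles -0.02 and 0.15). Of the 312 lower genes, 107 were above vehicle at 30 mg/kg, 34.3%, with a median of -0.03 (quartiles -0.08 and 0.02). The median over all genes was -0.00. These differences were small: 2 of the 352 genes and 0 of the 312 passed the test at 30 mg/kg, against 0.0151% of all genes (2 in all), while 696 of all genes tested had an unadjusted p under 0.05 at that dose.

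At 150 mg/kg, 1.02% of all genes tested were called higher than vehicle and 0.475% lower, 1.49% in all, and at 400 mg/kg 9.97% and 9.67%, 19.6% in all. Of the 352 genes 46 were among those higher at 150 mg/kg and 2 among those lower, and of the 312 genes 1 and 4. At 150 mg/kg the median log2 fold change against vehicle was 0.08 for the genes that then rose (quartiles -0.05 and 0.26) and -0.02 for those that then fell (quartiles -0.13 and 0.04). At 400 mg/kg against vehicle the medians were 0.42 and -0.32, and between 400 and 150 mg/kg 0.36 and -0.29. These comparisons share the vehicle, 150 or 400 mg/kg libraries, so their values stand side by side without a test. Apart from the deepest library of each group, those at 150 and 400 mg/kg were all deeper than those of vehicle. Every comparison of these doses with vehicle therefore mixes dose with depth.

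A direct test asked whether the log2 step from 150 to 400 mg/kg differed from that from vehicle to 150 mg/kg, with signs kept. For a gene that falls, a negative value can thus mean a larger second step. The test called 2 genes, 0.0151% of those tested. In both, the second step was the smaller rise on the log2 scale, which starts from a low vehicle level. The steps also cover unequal ranges of dose. One of them had means of 4.88, 77.3, 950 and 2546 CPM from vehicle to 400 mg/kg, and its second log2 step less its first was -6.18 (adjusted p = 7.58e-06). The other had 1.24, 2.40, 8.46 and 14.7 CPM, with a difference of -1.98 (adjusted p = 0.04), and lost its call under 17 of 27 alternatives, at adjusted p of up to 0.126. No gene was called with a positive value in this edgeR fit (1320 genes had an unadjusted p under 0.05 in either direction). With gene totals as the only scaling edgeR called 14 such genes, and DESeq2 called 12. Vehicle and 150 mg/kg libraries differ in depth set, 31.8 to 37.0 M against 39.8 to 41.6 M gene reads without the deepest of each group. A fit that took the set as 3 levels called 91 genes, 44 with a positive and 47 with a negative value.

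Few genes could show a return towards vehicle, as 198 genes, 1.49% of those tested, were called between vehicle and 150 mg/kg. Genes called in 1 direction between vehicle and 150 mg/kg and in the other between 150 and 400 mg/kg numbered 3. A gene at 1.65 CPM with vehicle was at 2.87 CPM at 150 mg/kg and at 1.53 CPM at 400 mg/kg (second step -0.91, SE 0.19, adjusted p = 0.00784). The others dipped at 150 mg/kg, from 17.7 to 14.4 and back to 17.6 CPM (0.29, SE 0.07, adjusted p = 0.0179), and from 12.5 to 10.9 to 12.4 CPM (0.19, SE 0.05, adjusted p = 0.031). The 150 mg/kg libraries enter both steps, and none of the 3 passed the direct test of the steps (adjusted p of 0.0646 to 0.144).

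In testis libraries with the same title numbers, the genes called in liver differed little between 400 and 150 mg/kg. Of the 333 higher genes tested in testis, 181 had a higher mean at 400 mg/kg, 54.4%, and of the 267 lower genes 95 did, 35.6%, beside 44.6% of the 12365 genes tested in both tissues. The medians were 0.01 and -0.04 on the log2 scale, beside -0.01. In testis 0.776% of the genes tested there were called in this comparison, 0.614% higher and 0.162% lower, and 5 of the 333 and 1 of the 267 were among them, all 6 higher. A joint fit of both tissues found an effect that differed in 138 of 18221 genes (0.757%), of which 87 had the higher value in liver (0.477%) and 51 in testis (0.28%). Of the 664 genes called in liver 105 were among them, 70 higher and 35 lower in liver, and both tests use the same liver libraries. The joint fit took all libraries as independent, although the tissues share title numbers. With a block on the title number 74 genes differed, 54 with the higher value in liver and 20 in testis.

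**Figure D5:**
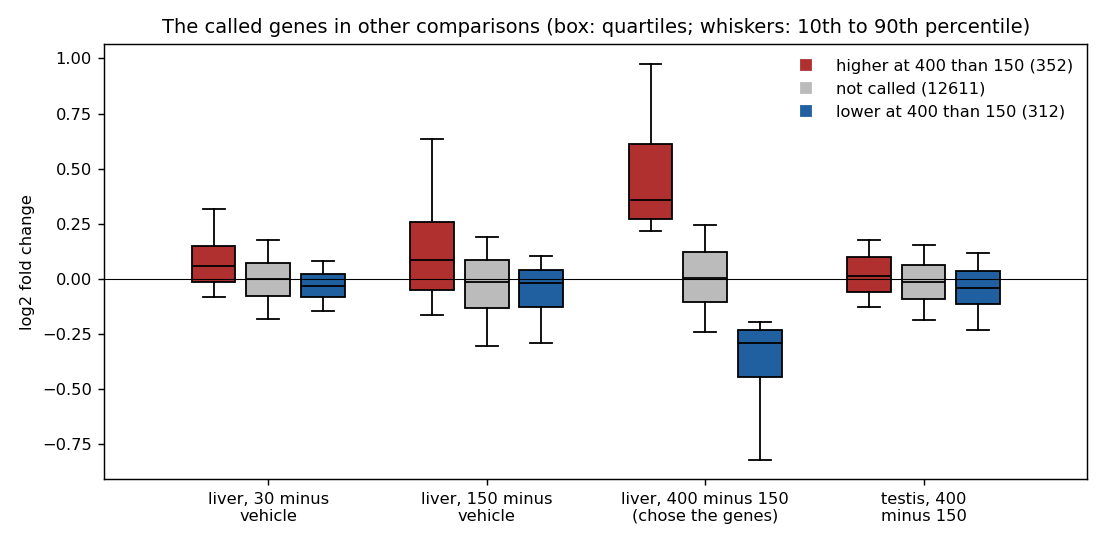
Log2 fold changes of the genes called higher (red), lower (blue) or not called (grey) at 400 against 150 mg/kg in liver, in 4 comparisons; boxes give median and quartiles, whiskers the 10th and 90th percentile, and values beyond them are not drawn. At 30 mg/kg the medians are 0.06 and -0.03, and in testis 0.01 and -0.04.

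Among the rarest transcripts no switch between doses was seen. No gene had 0 reads in all 6 libraries at 1 dose and at least 10 reads in each library at the other (0 in either direction). There were 919 genes with reads at 400 mg/kg and none at 150 mg/kg, with at most 74 reads in a library, and 847 with the reverse, with at most 353. Of the 32545 genes in the files, 19773 had a read in the 12 libraries.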

How the data were processed

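The deposited files hold raw read counts per Ensembl rat gene, which the authors made with CASAVA 1.8, HISAT2 and HTSeq 0.6.1, per the submitters' processing notes. Libraries were made with a stranded mRNA kit, per the labels' protocols; genome build, annotation and strand setting: not given in the sources used here. Lines of reads that belong to no gene (5 in each file) held 42.2% to 46.1% of reads in the 12 libraries and were left out. Reads with several alignments were counted for no gene, so near-identical copies are less certain. Counts were tested in R 4.3.3 with edgeR 4.0.16 (the filterByExpr filter, TMM, robust quasi-likelihood fit of all 24 liver libraries, 2-sided, Benjamini-Hochberg over 13275 genes). Each standard error is the log2 fold change over the square root of F. Log2 CPM used a prior count of 2. Alternatives were RLE or total scaling, DESeq2 1.42.0, limma-voom 3.58.1, other filters, fewer libraries, a depth term and a fold change of 1.5. Depth sets are inferred from depth, as the labels name no batch.

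The steps were tested on simulated data. Of genes given a 1.25-fold change, 17 of 60 were called in the right direction. For 1.5-fold it was 57 of 70 and for 2-fold 65 of 70, with 5 false calls in all. Members, lists and groupings were chosen with earlier results of these data known. The 18 gene lists need symbols and were not applied. Genes given by ID are the 2 with the highest and the 2 with the lowest log2 fold change among those with an adjusted p under 0.05, a mean of at least 1 CPM and all 6 libraries at 400 mg/kg on the same side of the 150 mg/kg mean. Pairs of libraries within a group differed by more than sampling noise (chi-square per degree of freedom 31.7 to 83.4 over 30 pairs).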

Additional observations from a re-analysis of the deposited data

Results flagged for a closer look

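Dixon's test was made for 46 sets of 6 libraries and marked 1 library in 8 of them, where chance marks about 1 in 20. Gene reads were highest in 150 mg/kg 2415, at 46.0 M, and in 400 mg/kg 2421, at 45.0 M. The share of reads in no annotated feature was lowest in 150 mg/kg 2419, at 4.60%, and the share of the 10 most abundant genes highest in 400 mg/kg 2426, at 27.5%. ENSRNOG00000001388 was at 137 CPM in 30 mg/kg 2411. ENSRNOG00000001466 was at 6.09 CPM in 150 mg/kg 2415, still below every 400 mg/kg library, and ENSRNOG00000059834 at 1.73 CPM in 400 mg/kg 2421. The seventh most abundant gene was at 15204 CPM in 150 mg/kg 2417.

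By the test of the difference, the effect of 400 against 150 mg/kg differed between liver and testis for 138 genes. With a block on the title number it differed for 74. The second dose step in liver differed from the first for 2 genes, by -6.18 and -1.98 on the log2 scale.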

How the results depend on the processing

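Over 23 alternatives, the count of genes called between 400 and 150 mg/kg stayed within 1.5 times of 664 in 13. It was 1831 with gene totals as the only scaling (1706 higher, 125 lower), 1051 with DESeq2 (535, 516), 418 without a filter (226, 192), 288 with only the 12 libraries (170, 118), 68 with 5 against 5 (39, 29), 393 with 20 libraries without the deepest of each group (205, 188) and 7 against a fold change of 1.5 (5, 2). The last 4 use fewer libraries or a stricter null. Without 1 library it was 398 to 718, with 210 to 371 higher and 180 to 347 lower. The test of the dose steps called 18 genes with gene totals (14 with a positive value, 4 with a negative one) and 34 with DESeq2 (12, 22). With the set as a term of 3 levels it called 91 (44, 47). With limma-voom, without a filter or with the set as a term of 2 levels it called 1, with a negative value. Without 1 library it called 1 to 3. The first of its 2 genes was called in all 27 alternatives. The difference in the share of the 10 most abundant genes was -2.81 to -2.13 percentage points without 1 library. Without the first gene, whose reads stayed in the total, it was -0.391 percentage points (exact permutation p = 0.303). The cause of these changes was not tested.

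No paired analysis was possible because the libraries at 150 and 400 mg/kg share no title number. Between tissues the numbers are shared. The deviations of same-numbered libraries correlated at 0.0597 to 0.0976, and all 12 liver libraries correlated best with their own number within their dose group. Same-numbered libraries were thus not fully independent, as the joint fit without a block took them to be. With a replicate block on the title number, 74 genes differed between the tissues (54 higher in liver, 20 lower); DESeq2 called 289 (170, 119). The tissue test with its alternatives, total scaling, the 20-library fit, the term of 3 levels and the share without the first gene were added after seeing the data.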
